A study of Mus musculus with 8 samples.

Results

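Mesothelin is the product of Msln, and the single row with that symbol was taken from a deposited table of 21879 genes. The gene was chosen by its counts and fold change in these same libraries, which were lower in knockdown cells at a good level, so its own difference between the groups is described below and not tested. Messenger RNA was measured by poly(A) sequencing in TCMK-1, a transformed line of mouse kidney tubular epithelial cells. There were 4 libraries of cells carrying an shRNA against smgGDS, the product of Rap1gds1, and 4 of cells carrying a control shRNA, all of them after 20 µM cisplatin. No library of cells without cisplatin was among the 8 samples, so the knockdown cannot be compared with and without the drug. The sources used here do not give the length of the exposure. Neither the shRNA sequence nor whether each line is 1 clone is given, and nothing in the labels says that the 4 libraries of a group were separate cultures, so spread and p-values measure differences between these samples, which may be technical.

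Mesothelin is made as a precursor that furin-type proprotein convertases cut into a released fragment, megakaryocyte potentiating factor, and a mature protein held on the cell surface by a glycosylphosphatidylinositol (GPI) anchor. The mature protein binds the mucin Muc16, and membrane proteases such as Adam17 can shed it from the cell. It is best known as a marker of the mesothelium, the lining of the body cavities, and is abundant in several human carcinomas. In human cancer cells TEAD and YAP act on a MSLN enhancer, and in mouse mammary cells Wnt signalling raised Msln.

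Total expected counts per library were 12746051 to 14280962 in the knockdown and 11560977 to 16059158 in controls. Knockdown replicate 4 stood apart from the rest on the leading principal component of log2 CPM, which carried 29.2% of the variance (20.9, against 8.86 to 9.58 in the other knockdown libraries and -16.5 to -8.86 in controls). Rap1gds1 itself had 0.81, 0.74, 0.73 and 0.77 FPKM in knockdown replicates 1 to 4, against 4.94, 4.64, 4.75 and 4.59 FPKM in control replicates 1 to 4, so every library matched its label. Of 19 kidney tubule markers 6 had enough counts to be tested, led by the water channel Aqp1 and the transcription factor Pax8, while Umod, Slc22a6 and Hnf4a had 0 counts in all 8 libraries and the epithelial cadherin Cdh1 at most 5.

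Msln (ncbi_56047) lies on the minus strand of chromosome 17, at chr17:25748613-25754378 in GRCm38.p6, a span of 5766 bases. GENCODE M21 gives it 9 transcripts, of which 4 coding ones cover nearly the whole span with 16 or 17 exons and 2044 to 2165 exonic bases. No other GENCODE gene overlaps it. The deposited count is 1 number per gene and does not separate these transcripts. The length implied by each library's count and FPKM was between 2116 and 2119 bases, so counts and FPKM carried the same picture.

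Every knockdown library held less Msln than every control library. Its expected counts were 475, 417, 401 and 334 in knockdown replicates 1 to 4, against 851, 833, 807 and 611 in control replicates 1 to 4. All were whole numbers. Per length, Msln was at 15.72, 15.25, 14.86 and 12.27 FPKM in the knockdown and at 25.22, 24.51, 26.92 and 24.97 FPKM in controls. Knockdown replicate 4 was the lowest of the 8 and control replicate 3 the highest, and a gap of 8.79 FPKM separated the groups. Among all tested genes, 9.61% had knockdown libraries all below the controls in scaled counts, and nothing is read from that here because the same values chose the gene. Fewer cells expressing the gene and less Msln RNA per cell cannot be told apart in such bulk libraries.

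**Figure D1:**
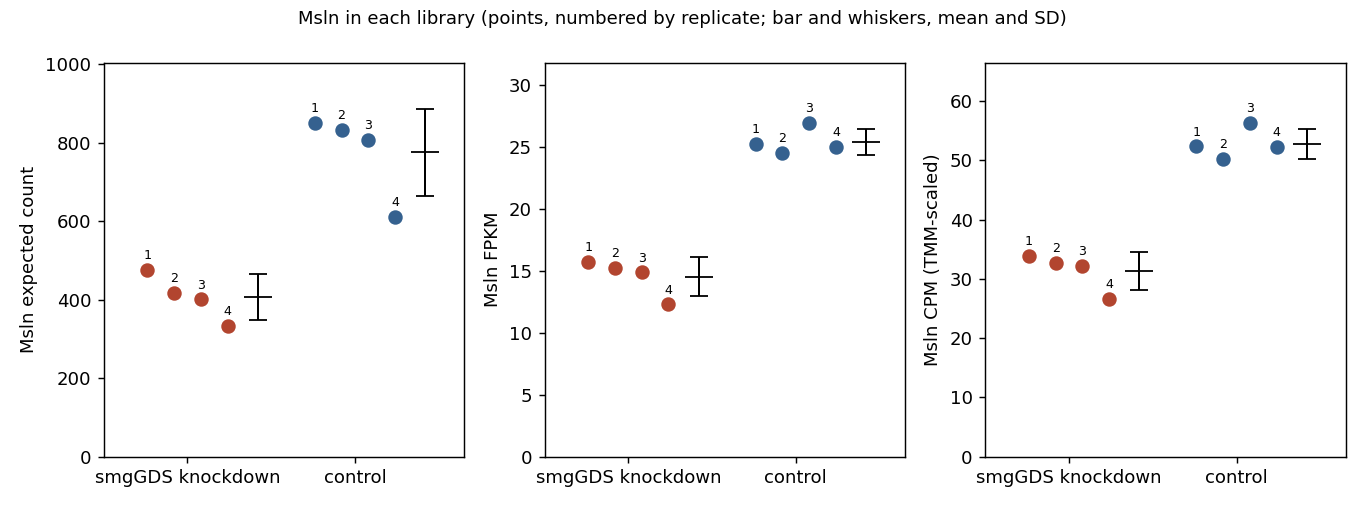
Msln in each of 4 smgGDS knockdown and 4 control libraries, in panels of expected count, FPKM and CPM after TMM scaling; points are libraries numbered by replicate, and the bar with whiskers is the mean with SD. On all 3 scales the knockdown points lie below every control point, with knockdown replicate 4 lowest.

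Group means were 14.5 ± 1.54 FPKM in the knockdown and 25.4 ± 1.05 FPKM in controls (SD, n = 4 each). In CPM, counts scaled to library size, after a TMM correction for library composition, they were 31.4 ± 3.20 and 52.8 ± 2.55 for the knockdown and control groups (SD, n = 4 each). The fitted log2 fold change, knockdown minus control throughout, was -0.75 (SE 0.06), that is 59.5% of the control level. The knockdown libraries scattered more among themselves than the controls, with a coefficient of variation of 10.2% in the knockdown, where counting alone gives 4.96%, and 4.83% in controls, where it gives 3.59%. Knockdown replicate 4 made up most of that scatter. The other 3 knockdown libraries averaged 32.9 ± 0.90 CPM (SD, n = 3), and without that library Msln was at 62.4% of control.

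Msln lay above the middle of the genes detected. Counted from the top of genes above 0 FPKM, it stood at 27.3% to 30.6% in knockdown libraries and 20.0% to 21.4% in controls. Ranked by FPKM within a library it stood 3888th, 3956th, 3991st and 4373rd in knockdown replicates 1 to 4, among 14228 to 14332 genes above 0. In control replicates 1 to 4 it stood 3021st, 3108th, 2896th and 3035th, among 14225 to 14520 genes. The place in the order was thus later in every knockdown library, and latest in replicate 4.

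By size of fall, Msln was 6th of the 7323 tested genes with at least 10 CPM in controls. Genes with a lower log2 fold change included Rap1gds1, the NF-Y subunit Nfyc, Fam102a and the autophagy protein gene Atg9b, each less abundant than Msln. Atg9b, at 6.91 ± 2.28 CPM in the knockdown and 12.1 ± 4.36 CPM in controls (SD, n = 4 each), had overlapping groups and did not pass the test across all genes. Just behind Msln came the ephrin receptor Ephb3 (log2 fold change -0.73), the sphingosine phosphate receptor S1pr3 (-0.69) and Klhl42 (-0.67). Among the 3360 tested genes at least as abundant as Msln in controls, none had a lower fold change. Over all 11576 tested genes, with those below 10 CPM in controls counted, Msln was 85th. These places describe how the gene was chosen.

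The family member that lies next to Msln was lower as well. Mslnl, for mesothelin-like, lies at chr17:25733503-25748354 on the plus strand, so that the 3′ ends of the 2 genes face each other across 259 bases. It had 7.28, 8.72, 10.3 and 6.95 CPM in knockdown replicates 1 to 4, against 13.5, 9.65, 13.0 and 13.0 CPM in control replicates 1 to 4. Knockdown replicate 3 was above control replicate 2, so the groups overlapped at those libraries. Mslnl fell in the test across all genes, by edgeR's quasi-likelihood test with Benjamini-Hochberg adjustment over 11576 genes (log2 fold change -0.56, SE 0.13, adjusted p = 0.000956), where 9.15% of genes were called lower. It kept that call under every alternative tried, including each library left out.

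The longest run of identical bases between annotated transcripts of Msln and Mslnl was 12 bases, shown here because it bears on how far reads of the 2 genes could be mixed. Those runs, shown in capitals and read 5′ to 3′ along Msln, were 1 on the same strand and 1 on the opposite strand of Mslnl.
Same strand: GGACCTGCTGCT
Opposite strand: AGCCAGGAGGCC
Both genes had whole counts in all libraries. Per length, Mslnl stood at 12.8% to 18.9% of the Msln level in knockdown libraries and at 11.7% to 14.4% in controls. Its implied length moved between 2987 and 4353 bases over the 8 libraries, unlike that of Msln, so its FPKM and CPM do not order the libraries alike. Whether some of its reads come from Msln transcripts that run past their annotated end was not tested. The other family members were barely detected, Otoa (otoancorin) with at most 4 counts and Strc (stereocilin), known from the inner ear, with at most 3.

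Of 22 RefSeq genes within 100 kb of Msln, 17 were in the table and 15 were tested. Among these, 2 fell and 1 rose, a share close to that of all tested genes, 20.2% of which were called in either direction. Besides Mslnl, Narfl fell, which RefSeq lists as Ciao3 and which takes part in cytosolic iron-sulfur protein assembly. It had 33.1, 34.3, 34.0 and 30.9 CPM in knockdown replicates 1 to 4, against 38.8, 41.1, 43.0 and 43.4 CPM in control replicates 1 to 4, and the groups did not overlap (edgeR log2 fold change -0.33, SE 0.06, adjusted p = 0.000129). Narfl starts 19398 bases beyond Msln, overlaps Haghl and was given fractional counts, so its value is uncertain.

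Lmf1, a lipase maturation factor 85782 bases away on the other side, rose at a low level (5.42, 4.24, 4.09 and 4.63 CPM in knockdown replicates 1 to 4, against 3.75, 3.56, 3.00 and 2.48 CPM in control replicates 1 to 4, edgeR adjusted p = 0.0368). That call was lost without knockdown replicate 1 or 4, without control replicate 3 or 4, with DESeq2 and under scaling by library totals. On the same side as Mslnl, Rpusd1, of the pseudouridine synthase family (log2 fold change -0.14, SE 0.07), and the clamp loader subunit Chtf18 (-0.04, SE 0.06) did not pass. On the far side Haghl (-0.05), Fam173a (-0.10), the secreted factor Metrn (-0.22), Fbxl16 (-0.16), Wdr24 (-0.07), Jmjd8 (-0.14), the ubiquitin ligase gene Stub1 (0.06), Rhbdl1 (-0.01), the mitochondrial GTPase Rhot2 (0.00) and Wdr90 (-0.07) were also not called. Rpusd1 and Metrn passed as lower under scaling by library totals and on FPKM, and Metrn also without knockdown replicate 3 or control replicate 2. These scalings shift the median of all genes to -0.06 and -0.05.

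**Figure D2:**
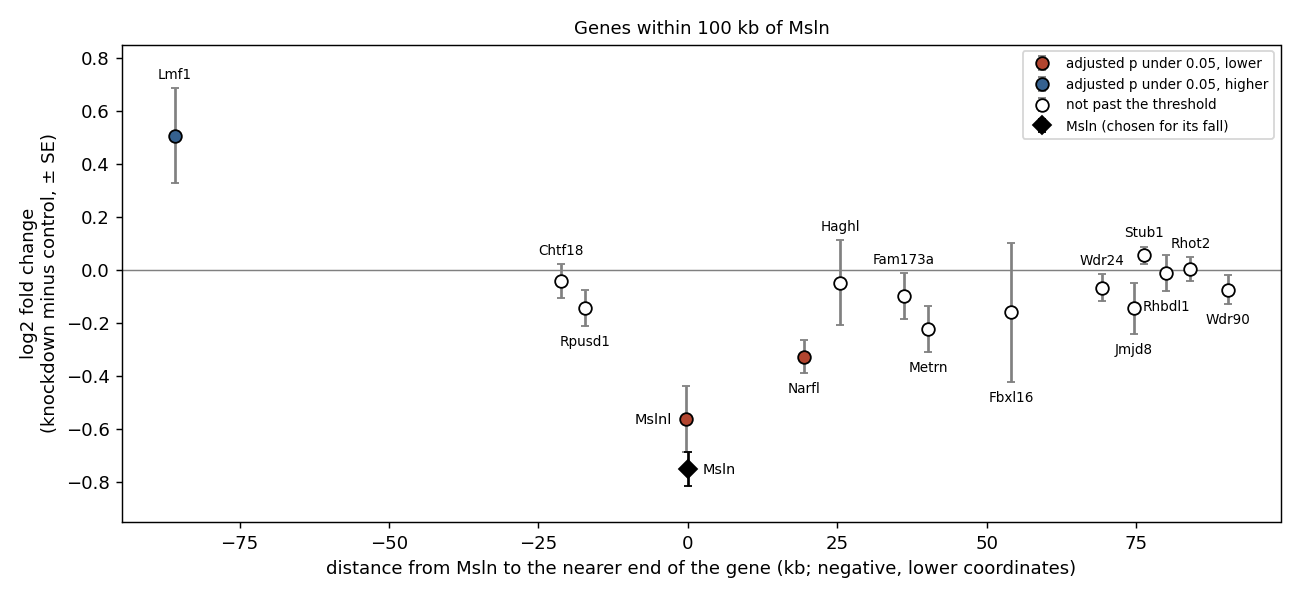
Log2 fold change with SE (knockdown minus control, n = 4 each) of the 15 tested genes within 100 kb of Msln, against the distance in kb from Msln to the nearer end of each gene; filled points passed the edgeR test and the diamond is Msln. Mslnl, Narfl and Lmf1 are the filled points, and the other 12 lie between -0.22 and 0.06.

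The known ligand was not detected, and the enzymes that process or shed mesothelin showed small or uncertain differences. Muc16 had 0 counts in all 8 libraries, which allows up to 3 counts, or 0.187 to 0.259 CPM, per library, with counting error alone considered. Of 11 genes for the ligand, convertases, sheddases and their cofactors, 8 were tested, 2 rose and 1 fell, with a median log2 fold change of -0.03 against 0.00 over all tested genes. Across all tested genes 11.1% were called higher and 9.15% lower.

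Furin, the convertase that cuts the precursor, was at 15.41, 15.89, 16.28 and 13.81 FPKM in knockdown replicates 1 to 4, against 18.24, 17.63, 16.81 and 17.47 FPKM in control replicates 1 to 4. The FPKM groups did not overlap, but those in CPM did, with replicate 4 of the knockdown the lowest. Furin fell by 0.14 on the log2 scale (SE 0.05, edgeR adjusted p = 0.0489). The call was lost with DESeq2 and without knockdown replicate 1, 2 or 4 or control replicate 1, 2 or 4. Adam17, a sheddase, was not called, at 25.0 ± 0.79 CPM in the knockdown and 25.2 ± 0.97 CPM in controls (SD, n = 4 each, log2 fold change -0.01, SE 0.07).

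Adam10, a related membrane protease, rose (6.99, 9.58, 7.93 and 8.47 CPM in knockdown replicates 1 to 4, against 6.71, 6.27, 5.93 and 6.07 CPM in control replicates 1 to 4, edgeR adjusted p = 0.0262). Its call was lost without knockdown replicate 2 or 4, without control replicate 2, 3 or 4, under scaling by library totals and on FPKM. The convertase gene Pcsk6 rose on very few reads, with 30, 16, 14 and 14 counts in the knockdown against 6, 14, 10 and 10 in controls (edgeR adjusted p = 0.0276). It was not called without knockdown replicate 1, without control replicate 1 or on FPKM, and DESeq2 gave it no adjusted p.

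The machinery that builds and attaches GPI anchors showed no call. Of 29 listed genes 28 were in the table and tested, with 0 called by edgeR and 0 by DESeq2, 4 at an unadjusted p under 0.05 by either tool, and a median log2 fold change of -0.02. Over all tested genes edgeR called 20.2% in either direction. Piga, the catalytic subunit of the opening step, was at 13.0 ± 1.25 CPM in the knockdown and 14.4 ± 1.16 CPM in controls, and the transamidase subunit Pigt at 239 ± 10.2 and 232 ± 10.4 CPM in the knockdown and control groups (SD, n = 4 each). On FPKM 3 members were called lower, where 1508 of all 11576 tested genes were, and 4 under scaling by library totals, where 1951 were.

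Other GPI-anchored proteins moved in both directions. Of 35 listed, 27 were tested, 4 rose and 6 fell, with a median log2 fold change of 0.03, where 11.1% of all tested genes were called higher and 9.15% lower. The CPM groups of 10 did not overlap, where 21.1% of all tested genes were so separated. The antiviral tether Bst2 rose at a high level (1130 ± 56.5 CPM in the knockdown and 927 ± 33.3 CPM in controls, SD, n = 4 each, edgeR adjusted p = 8.92e-09). The glypican Gpc4 rose by 0.67 on the log2 scale (SE 0.10, edgeR adjusted p = 5.07e-06), while the related Gpc1 fell by 0.18 (SE 0.04, edgeR adjusted p = 0.00021). The urokinase receptor Plaur (0.12) and Ly6a (0.14, counts not all whole) were the other rises. Under scaling by library totals, and on FPKM, 2 members were called higher.

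Besides Gpc1, the falls were the ephrin Efna1 (-0.47, SE 0.09), the lipopolysaccharide coreceptor Cd14 (-0.36, SE 0.06), Cd24a (-0.18), the hyaluronidase Hyal2 (-0.17) and Gas1 (-0.78, SE 0.19), a low gene at 2.88 ± 0.54 CPM in the knockdown and 4.92 ± 1.23 CPM in controls (SD, n = 4 each). Efna1, the fall whose level in the knockdown was nearest to that of Msln, had 14.78, 14.80, 12.39 and 10.80 FPKM in knockdown replicates 1 to 4, against 17.65, 21.16, 20.07 and 17.32 FPKM in control replicates 1 to 4. As with Msln, knockdown replicate 4 was the lowest library and the groups did not overlap.

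Set among these 35 genes by FPKM, Msln was 11th of 36 in the knockdown and 10th of 36 in controls. In controls it lay level with Hyal2 (25.30 to 26.18 FPKM) and with the upper libraries of Ly6c1 (19.78 to 25.35 FPKM), whose ranges overlap its own of 24.51 to 26.92 FPKM. In the knockdown Msln, at 12.27 to 15.72 FPKM, lay below every library of Hyal2 (20.72 to 22.65 FPKM) and Ly6c1 (21.86 to 24.44 FPKM) and within reach of Efna1 (10.80 to 14.80 FPKM).

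**Figure D3:**
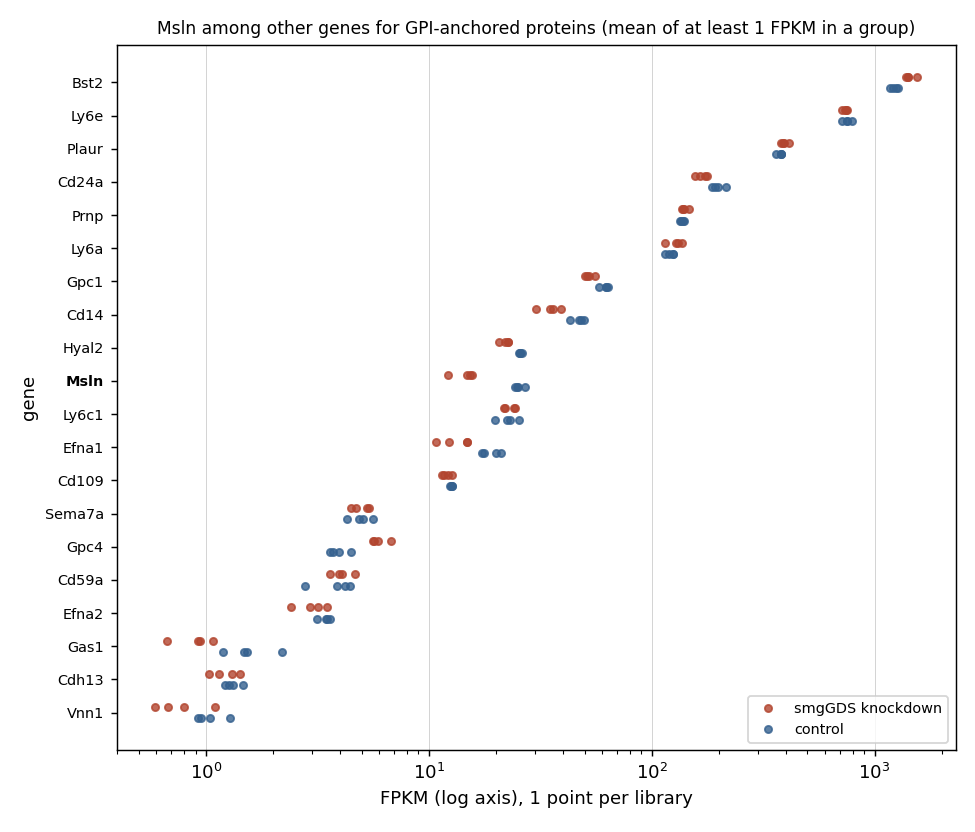
FPKM on a log axis of Msln and of the other GPI-anchored protein genes with a mean of at least 1 FPKM in either group, ordered by their control mean; each point is 1 library of smgGDS knockdown or control cells. Msln sits between Hyal2 and Ly6c1 in controls and near Efna1 in the knockdown.

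Apart from Pdpn and Krt19, the other genes of mesothelium were absent or low in these cells. Of 17 further mesothelial markers 6 were tested, and Muc16, Upk1b, Calb2, Gpm6a and Rspo1 had 0 counts in every library. The transcription factor Wt1 had at most 10 counts and Lrrn4 at most 3. Per length Msln ranked behind 1 of the 17, Pdpn, the mucin-type glycoprotein podoplanin, in the knockdown as in controls.

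Pdpn was the 1 marker of 6 called, where 9.15% of all tested genes were called lower, and it fell (69.44, 71.43, 69.93 and 72.36 FPKM in knockdown replicates 1 to 4, against 83.68, 82.48, 85.96 and 79.58 FPKM in control replicates 1 to 4, edgeR log2 fold change -0.17, SE 0.04, adjusted p = 0.000635). The groups did not overlap. No marker was called higher by edgeR or DESeq2, with 1 and 0 at an unadjusted p under 0.05 by those tools, and 1 was called on FPKM. Upk3b had 13, 11, 12 and 14 counts in knockdown replicates 1 to 4, against 9, 9, 8 and 7 in controls. It lay higher but was not called by edgeR (log2 fold change 0.77, SE 0.37). The CPM groups of 2 markers, Pdpn and Upk3b, did not overlap, where 21.1% of all tested genes were so separated. Keratin 19 was at 9.93 ± 1.05 CPM in the knockdown and 10.1 ± 0.96 CPM in controls (SD, n = 4 each). The summed level of the 17 markers was 79.3 to 86.6 FPKM in the knockdown and 92.1 to 99.1 FPKM in controls, most of it Pdpn.

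Among the tubule markers Aqp1 fell (126.7 ± 3.63 CPM in the knockdown and 154.7 ± 6.07 CPM in controls, SD, n = 4 each, edgeR adjusted p = 3.33e-07). It was the only call of 6 tested, where 9.15% of all tested genes were called lower. The summed level of the 19 tubule markers was 52.0 to 54.3 FPKM in the knockdown and 62.1 to 68.8 FPKM in controls, most of it Aqp1 (45.0 ± 1.21 FPKM in the knockdown and 57.1 ± 2.69 FPKM in controls, SD, n = 4 each). The median log2 fold change of the 6 tested tubule markers was 0.02, and Pax8 (0.05, SE 0.12), Epcam (0.30, SE 0.25), Emx2 (0.00, SE 0.14), Lrp2 (0.39, SE 0.55) and Cubn (-0.12, SE 0.34) were not called. Of 10 leukocyte, endothelial and fibroblast markers 3 were tested and 2 rose, the proteoglycan Dcn and the receptor Pdgfrb, where 11.1% of all tested genes rose. Dcn lost its call without knockdown replicate 4 or control replicate 2, and Pdgfrb without replicate 3 of either group and on FPKM. The sums of the 10 were 46.7 to 54.2 FPKM in the knockdown and 51.3 to 53.9 FPKM in controls, most of it the macrophage marker Cd68 (44.0 ± 2.94 FPKM in the knockdown and 48.2 ± 0.93 FPKM in controls, SD, n = 4 each), which was not called. The leukocyte marker Adgre1 was at 0 counts in all libraries and Ptprc at most at 1. The part of these markers in the difference of Msln was not tested.

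Genes of the TEAD, YAP and Wnt pathways, which are reported to act on mesothelin transcription, were mostly not called, and those that were lay higher. Of 15 TEAD, YAP and Wnt genes 14 were tested and 3 rose, where 11.1% of all tested genes did, with a median log2 fold change of 0.10. None fell by edgeR, DESeq2 or on FPKM, with 0 at an unadjusted p under 0.05 in each. Over all tested genes edgeR called 9.15% lower, and 1508 of 11576 were called lower on FPKM. With 14 genes tested, the absence of falls is not read as a result about this list. Yap1, the coactivator of the TEAD factors, was at 28.3, 25.4, 24.1 and 26.1 CPM in knockdown replicates 1 to 4, against 21.2, 21.5, 20.7 and 24.04 CPM in control replicates 1 to 4. The groups were separated by a narrow margin (edgeR log2 fold change 0.26, SE 0.08, adjusted p = 0.0145).

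Tead2, the most abundant TEAD gene by FPKM, rose by 0.15 on the log2 scale (SE 0.04, edgeR adjusted p = 0.00355), at 134.9 ± 2.80 CPM in the knockdown and 121.2 ± 4.67 CPM in controls (SD, n = 4 each). Tead1 (0.23, SE 0.11), Tead3 (-0.01, SE 0.10) and Tead4 (-0.49, SE 0.36) did not pass. The Wnt effector beta-catenin, Ctnnb1, was the other rise (0.15, SE 0.03, edgeR adjusted p = 0.000263). Yap1 and Tead2 lost their calls under scaling by library totals and on FPKM, Ctnnb1 on FPKM, and Yap1 also without knockdown replicate 1. Axin2, a Wnt target, was at 0.80 ± 0.25 CPM in the knockdown and 1.16 ± 0.10 CPM in controls (SD, n = 4 each) and was not called.

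**Figure D4:**
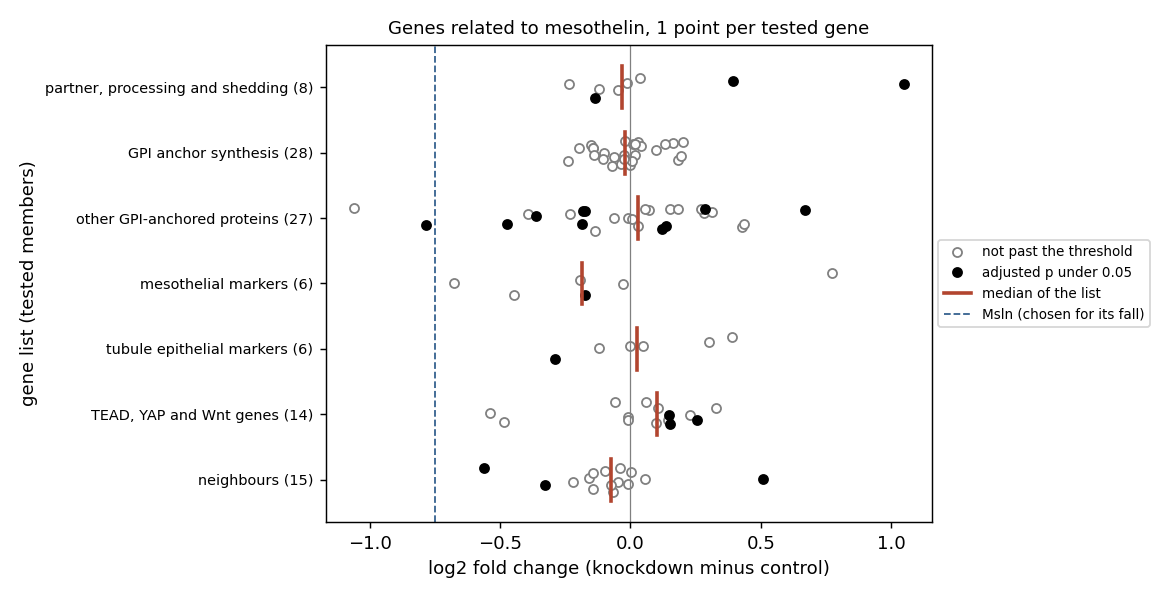
Log2 fold change (knockdown minus control) of each tested gene in the lists related to mesothelin and in the chromosomal neighbours; filled points passed the edgeR test, red bars are list medians, the dashed line is Msln, and the number of tested genes is in parentheses. The medians of the 7 plotted lists lie between -0.18 for mesothelial markers and 0.10 for TEAD, YAP and Wnt genes, and the dashed line is at -0.75.

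Over the 8 libraries, 298 of 8510 tested genes with a mean of at least 5 CPM and an established symbol had a Pearson r above 0.9 with Msln in log2 CPM. In the other direction 415 had an r below -0.9, and the median r was -0.0075. These correlations share the libraries and the group difference and are given as a description. The 6 most alike were Golt1b, a Golgi transport protein (r = 0.994), Git1, a GTPase-activating protein for Arf (0.994), the secreted metalloproteinase Adamts1 (0.992), Prr11 (0.986), the endosomal Rab effector Rbsn (0.984) and the cytokine signalling inhibitor Cish (0.984). All 6 were lower in CPM in every knockdown library than in any control library, where 9.61% of all tested genes were. That separation largely follows from picking genes by r with Msln. Their log2 fold changes were between -0.58 for Prr11 and -0.21 for Golt1b, each smaller in size than that of Msln.

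Golt1b had 51.7, 50.2, 49.7 and 47.1 CPM in knockdown replicates 1 to 4, against 56.9, 56.5, 58.7 and 57.6 CPM in control replicates 1 to 4. Its lowest library was knockdown replicate 4 and its highest control replicate 3, as for Msln. With the group means removed, r with Msln was 0.969 for Golt1b, 0.942 for Git1 and between 0.747 and 0.90 for the other 4. These genes were picked by r over the same libraries, so high values here partly follow from that choice and are no separate support. For Mslnl r was 0.848 over the 8 libraries and 0.472 once group means were removed.

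**Figure D5:**
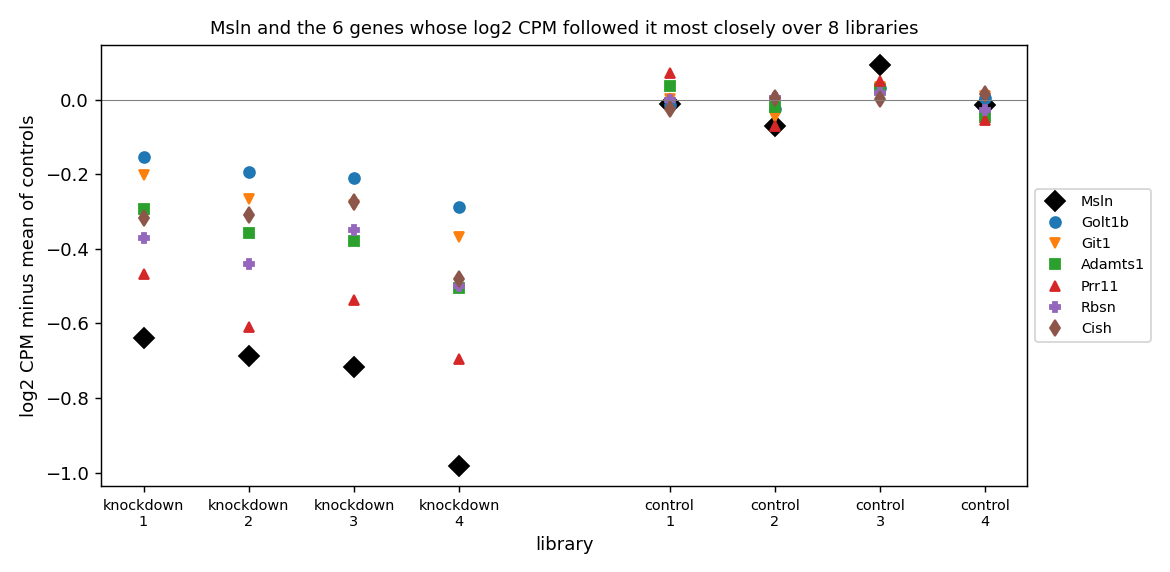
Log2 CPM of Msln and of its 6 most similar genes in each of 4 knockdown and 4 control libraries, with each gene's control mean subtracted; each marker is 1 gene in 1 library. All 7 genes lie below 0 in the knockdown, with Msln lowest in each library and each of the 7 at its own lowest in knockdown replicate 4.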

How the data were processed

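Poly(A)-selected RNA went into NEBNext Ultra libraries, per the labels' protocols. Expected counts per gene and FPKM are the authors' own columns, per the file headers. RSEM, StringTie 1.3.1, HISAT2 2.4, Bowtie2 2.2.8 and fastp 0.18.0 appear beside edgeR and DESeq2 in the list of tools, and GRCm38.p6 as the build, per the submitters' processing notes, with no role given. No source used here states the strand setting, so overlapping and antisense reads cannot be told apart.

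The main test, after rounding of the counts, was the robust quasi-likelihood F-test of edgeR 4.0.16 under R 4.3.3 (TMM, default filter, two-sided, adjusted p under 0.05 over 11576 genes). In 2218 genes counts were not all whole (tolerance 1e-09). SE came from the fold change and F. Log2 CPM used a prior count of 2. Alternatives were DESeq2 1.42.0, limma 3.58.1 on log2(FPKM + 0.5), other scalings and filters, a replicate term and each library left out. Replicates differed by more than sampling noise (chi-square per degree of freedom 1.94 to 3.94).

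Coordinates came from RefSeq and GENCODE M21 tables of the same build. Msln and the gene lists were chosen with earlier results of these data known. Named genes were Msln, Rap1gds1, Mslnl, Otoa, Strc, Muc16, Furin, Adam17, the TEAD genes, Yap1, tested neighbours, up to 2 called members per list by adjusted p, the 6 genes most correlated with Msln and 3 on each side of it in fold, of which 1 is not reported here. Others were named after their values were seen.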

Additional observations from a re-analysis of the deposited data

Results flagged for a closer look

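Among 90 sets of 4 libraries examined for the named genes, 6 held a library far from the other 3, where chance gives about 1 in 20. Mslnl was at 9.65 CPM in control replicate 2, against 13.0 to 13.5 CPM in the other controls. Tead3 was at 12.8 CPM in control replicate 1 and at 15.6 to 16.1 CPM in the other controls. Chtf18 was at 35.0 CPM in knockdown replicate 1 and at 34.2 to 34.3 CPM in the other knockdown libraries, a gap that is small in size. Pcsk6 was at 2.14 CPM in knockdown replicate 1 and at 1.12 to 1.26 CPM in the other 3, and its call was lost without that library. Dcn was at 6.79 CPM in knockdown replicate 4 against 5.78 to 5.85 CPM in the other 3, and lost its call without it, as it did without control replicate 2. Atg9b was at 18.6 CPM in control replicate 2 and at 9.41 to 10.2 CPM in the other controls, and it passed the edgeR test once that library was left out. No set of Msln was among the 6.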

How the results depend on the processing

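The log2 fold change of Msln, -0.75 in the main fit, moved by less than its pooled replicate SD (0.12 in log2 CPM) under every alternative. It was at -0.79 to -0.68 with each library left out, -0.80 under library totals and -0.79 and -0.81 on FPKM with pseudocounts of 0.5 and 0.1. Same-numbered knockdown and control samples had correlations of deviations of -0.036 to 0.083. Knockdown replicates 1, 2 and 4 each correlated best with the control of their own number, and replicate 3 did not. The main test used no pairing, and whether the numbers mark one cannot be settled from such low values. A replicate block gave 1425 genes higher and 1235 lower, with 1 GPI anchor synthesis gene higher and 2 lower and Metrn lower. Library totals gave 766 genes higher and 1951 lower, against 1285 and 1059, and FPKM gave 598 and 593 higher and 1508 and 1505 lower at the 2 pseudocounts, so that lower calls outnumbered higher ones under these scalings. Under library totals the counts were 1 higher for processing and shedding, 4 lower for GPI synthesis, 2 higher for other GPI-anchored proteins, 1 higher for TEAD, YAP and Wnt genes, and 0 higher and 4 lower for neighbours. On FPKM, at either pseudocount, they were 0 higher for processing and shedding, 3 lower for GPI synthesis, 2 higher for other GPI-anchored proteins, 1 higher for mesothelial markers, 0 for TEAD, YAP and Wnt genes, 1 higher for other cell types and 4 lower for neighbours. DESeq2 gave 1 higher and 0 lower for processing and shedding and 0 higher for neighbours. With a mean CPM of at least 5, processing and shedding had 1 higher of 7 tested and neighbours 0 higher of 12 tested. Pcsk6 and Lmf1, with means below 5 CPM, were not tested under that filter. It gave 1 lower for GPI synthesis, and with no filter 1 tubule marker was higher. With each library left out, processing and shedding ranged over 1 to 2 higher and 0 to 1 lower, GPI synthesis over 0 to 1 in each direction, other cell types over 1 to 2 higher and neighbours over 0 to 1 higher. Estimates near 0 changed sign with a library left out, for Adam17 (-0.036 to 0.011), Tead3 (-0.086 to 0.058), Chtf18 (-0.062 to 0.0042), Haghl (-0.17 to 0.052), Rhbdl1 (-0.063 to 0.012) and Rhot2 (-0.023 to 0.043, and -0.053 under library totals and -0.048 on FPKM). Apart from genes that a filter removed, the cause of these shifts was not tested. Depth limits Muc16, Otoa, Strc and most mesothelial markers, which had too few counts to be tested.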
